A study of Mus musculus with 2 samples.

Results

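The strongest distal accessible sites of the mouse spleen were 352 autosomal regions at which DNase I cut chromatin heavily in both animals studied, away from the annotated starts of protein-coding genes. They were chosen by the height of the deposited DNase-seq peaks: a peak of height 8 or more in 1 animal had to overlap, by at least 1 bp, a peak of height 8 or more in the other. The midpoint of each peak also had to lie over 1 kb and at most 100 kb from the nearest transcription start site (TSS) of any transcript of a protein-coding gene in GENCODE M21. In each animal 353 peaks met this rule, of 79246 peaks in animal 1 and 77231 in animal 2, and overlapping peaks of the animals were joined into the 352 sites. In all, 4653 pairs of overlapping autosomal peaks reached height 8 in both animals. Of those pairs 4280 lay within 1 kb of a coding TSS, 353 were distal, 19 lay over 100 kb away, and 1 was distal in animal 1 only and was left out.

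The study measured DNase I hypersensitivity in spleen tissue from male B6CASTF1/J mice aged 2 months, the first-generation cross of C57BL/6J and CAST/EiJ, supplied by The Jackson Laboratory. There was a single group of 2 libraries, labelled as biological replicates 1 and 2 and called animal 1 and animal 2 here. The descriptions name separate males, although both records carry the same donor entry. No treatment or genotype contrast exists, so no test between conditions was possible, and every share below describes these 2 libraries.

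DNase I cuts DNA where nucleosomes are displaced, so a tall peak marks regulatory DNA that is open in many cells of the tissue or cut very often in some. Outside coding promoters such DNA includes enhancers, CTCF-bound insulators and the promoters of non-coding RNAs, among them transfer RNA genes read by RNA polymerase III. A bound protein can shield a short stretch from cutting, which is called a footprint. In bulk tissue, more cells with an open site and more cutting per cell cannot be told apart.

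The sequences of 9 sites are printed because they carry the kinds of sequence the results turn on: starts of non-coding RNAs, motif matches inside and outside footprints, and sites beside immune and immediate early genes. Zfp395, Fos and H2-Aa were named by the rule on height and gene lists, and the others were chosen after their values were seen. Sequences are the plus strand of the RefSeq GRCm38.p6 assembly, which has the coordinates of mm10. Capitals mark bases that lay in a deposited footprint in both animals.
tRNA n-TRccg1: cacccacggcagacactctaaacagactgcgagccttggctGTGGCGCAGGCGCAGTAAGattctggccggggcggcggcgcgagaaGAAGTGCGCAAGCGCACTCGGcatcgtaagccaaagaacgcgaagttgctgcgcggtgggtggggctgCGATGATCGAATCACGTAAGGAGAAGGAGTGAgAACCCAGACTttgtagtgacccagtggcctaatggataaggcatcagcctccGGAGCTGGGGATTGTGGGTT
Malat1 upstream: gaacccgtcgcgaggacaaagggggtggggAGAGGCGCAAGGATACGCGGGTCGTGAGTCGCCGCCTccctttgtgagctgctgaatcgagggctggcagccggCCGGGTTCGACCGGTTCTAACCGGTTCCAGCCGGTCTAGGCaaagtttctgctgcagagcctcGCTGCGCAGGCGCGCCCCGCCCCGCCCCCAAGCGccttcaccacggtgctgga
Mir142hg start: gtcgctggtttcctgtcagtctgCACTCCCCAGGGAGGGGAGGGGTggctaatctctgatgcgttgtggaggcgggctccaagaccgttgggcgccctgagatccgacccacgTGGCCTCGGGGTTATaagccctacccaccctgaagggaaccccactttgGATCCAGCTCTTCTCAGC
Mxi1 intron: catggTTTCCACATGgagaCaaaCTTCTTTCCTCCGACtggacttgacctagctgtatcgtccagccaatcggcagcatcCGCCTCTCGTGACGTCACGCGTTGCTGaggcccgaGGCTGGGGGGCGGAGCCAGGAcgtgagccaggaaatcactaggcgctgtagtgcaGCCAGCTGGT
Ssc5d intron: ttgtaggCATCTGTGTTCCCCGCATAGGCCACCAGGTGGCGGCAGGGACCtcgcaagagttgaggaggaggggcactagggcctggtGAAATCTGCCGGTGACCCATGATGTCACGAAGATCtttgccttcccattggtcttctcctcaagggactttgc
Ccnd3 intron: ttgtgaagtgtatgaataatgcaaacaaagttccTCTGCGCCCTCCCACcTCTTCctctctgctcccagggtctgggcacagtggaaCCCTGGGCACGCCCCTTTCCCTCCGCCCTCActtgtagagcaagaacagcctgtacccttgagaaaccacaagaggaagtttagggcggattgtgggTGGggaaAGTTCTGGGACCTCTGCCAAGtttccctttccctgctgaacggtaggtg
Fos downstream: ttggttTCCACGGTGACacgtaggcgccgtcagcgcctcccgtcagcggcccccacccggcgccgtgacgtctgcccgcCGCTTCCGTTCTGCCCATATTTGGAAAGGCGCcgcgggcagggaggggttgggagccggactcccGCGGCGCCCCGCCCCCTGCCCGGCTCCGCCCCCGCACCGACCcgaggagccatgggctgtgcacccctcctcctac
H2-Aa: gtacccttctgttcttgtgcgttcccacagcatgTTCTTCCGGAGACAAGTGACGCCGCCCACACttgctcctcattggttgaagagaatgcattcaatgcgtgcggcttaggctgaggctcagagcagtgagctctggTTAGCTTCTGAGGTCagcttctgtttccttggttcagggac
Zfp395 upstream: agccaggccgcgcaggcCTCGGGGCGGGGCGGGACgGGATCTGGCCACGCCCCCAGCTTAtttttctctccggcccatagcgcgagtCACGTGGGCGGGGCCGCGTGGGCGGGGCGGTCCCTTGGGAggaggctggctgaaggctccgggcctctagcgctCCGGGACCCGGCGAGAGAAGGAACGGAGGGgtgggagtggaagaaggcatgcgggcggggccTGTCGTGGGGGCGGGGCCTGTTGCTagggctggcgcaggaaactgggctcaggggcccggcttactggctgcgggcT

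Positions in these sequences are counted from 1 at the first printed base. The Mxi1 site (chr19:53314241-53314420), in an intron of a gene for a partner of MAX, held a CREB match, TGACGTCA, at bases 90 to 97, all in capitals. The Ssc5d site (chr7:4943321-4943480) held a CTCF match at bases 29 to 40, all 12 of them in capitals. In contrast, the PU.1 match of the Ccnd3 intron (chr17:47508001-47508240) at bases 160 to 167 and the RUNX match at bases 152 to 158 had no base in capitals, so neither lay in a footprint shared by the animals.

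The site upstream of Malat1 (chr19:5803561-5803780), a gene for an abundant nuclear non-coding RNA, held GC boxes (GGGCGG) at bases 184 to 189 and 189 to 194, both wholly in capitals. The Zfp395 site (chr14:65343681-65343980) held 7 GC boxes, 6 of them wholly in capitals. The site downstream of Fos (chr12:85486021-85486240) held 2, both in capitals. At the tRNA site (chr11:107012661-107012920), 65 bp from the start of the arginine tRNA gene n-TRccg1, the GC box at bases 71 to 76 had none. The Mir142hg site (chr11:87755421-87755600) lay 81 bp from the start of the host transcript of miR-142, a microRNA of blood cells, and its EBF match (CCCNNGGGA) at bases 28 to 36 lay wholly in capitals. The H2-Aa site (chr17:34291701-34291880) held a GC box in capitals at bases 56 to 61 and an NFY match (CCAAT, reverse strand) at bases 75 to 79 outside them.

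The spleen label was checked on promoters, which the choice of distal sites did not use. The gene lists were chosen with earlier results of these data known, so the check is not independent. Promoter peaks had height 8 or more in both animals and lay within 1 kb of a coding TSS. A gene was counted when it was the nearest coding gene of such a peak. This held for 6 of 10 MHC class II genes and 8 of 26 B cell genes. For all autosomal protein-coding genes the count was 3992 of 20780, or 19.2%. T cell genes had 1 of 29, and the lists for hepatocyte, muscle, neuronal and epithelial genes had none. The macrophage, NK, neutrophil, megakaryocyte, endothelial and stromal lists also had none. A gene whose neighbour had the closer TSS was not counted, so these counts do not cover every promoter. Dendritic cell genes had 2 of 13, germinal centre and plasma cell genes 2 of 13 and erythroid genes 3 of 18. These shares, like that of T cell genes, were below the share of all genes.

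Median height over the 352 sites was 10.4 in animal 1 and 11.7 in animal 2, with ranges of 8.001 to 38.5 and 8.005 to 49.8. Heights are the authors' signal, a cut density whose unit is not stated. Every distinct height was a whole multiple of a step of 0.00716 in animal 1 and 0.00679 in animal 2, within 0.05 of a step. A height of 8 therefore stood for 1117 and 1178 steps, and if a step is a single cut, counting error at these sites is small. Just inside the threshold were sites nearest Rnf145 (8.001 in animal 1 and 8.29 in animal 2) and Pebp4 (8.001 and 8.06). Just outside were sites nearest Ccdc194 (7.99 and 11.8) and Nr4a3 (7.97 and 8.72), so the set has no natural edge at its lower end.

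The highest site, at chr15:99735641-99736040, reached 37.1 in animal 1 and 49.8 in animal 2. It lay in an exon of Cers5, a ceramide synthase gene, 10198 bp downstream of the nearest coding TSS, that of Cox14. The next was in an exon of Lars2, the mitochondrial leucyl-tRNA synthetase gene, at 38.5 and 32.96. The third, at 36.3 and 29.7, lay in an intron of Kpna1, an importin gene, near the start of the non-coding gene Gm15564. Sites nearest Igf2bp3 (33.4 and 26.0), Zfp395 (23.8 and 30.3) and Il31ra (31.04 and 21.1) followed. Kcnn1 (24.2 and 26.4), Ubqln1 (18.9 and 30.5), Ccne1 (21.2 and 23.6), Cirbp (22.0 and 21.5), Map1lc3b (19.04 and 23.7) and Wnt7b (21.7 and 20.9) completed the 12 highest. None of these 12 nearest genes was in the gene lists used here, and 3 of the 6 highest sites lay in sequence of which under 50% of the 31-base words were unique in the genome. The Kpna1 site was just over that limit, at 50.6%.

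**Figure D1:**
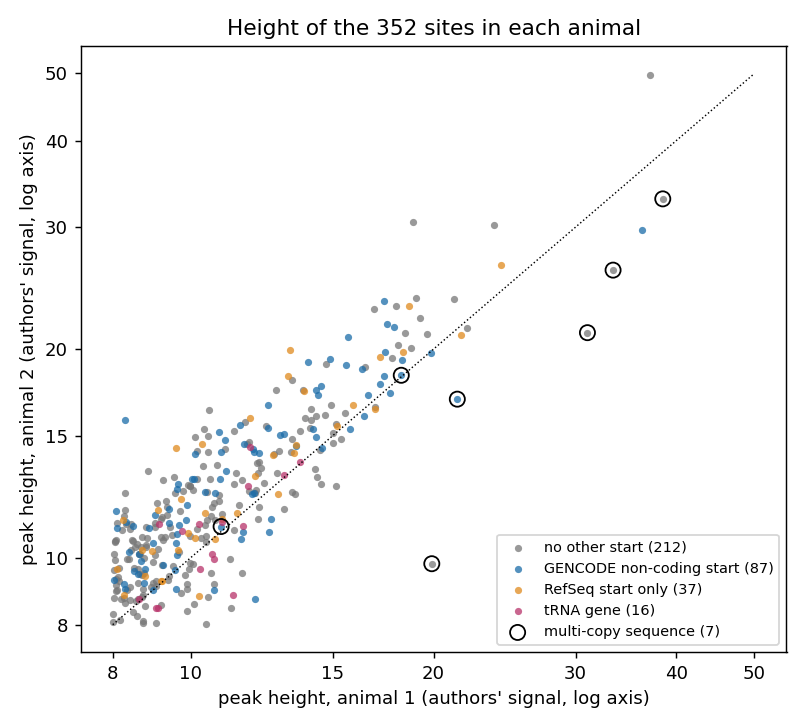
Peak height of each of the 352 sites in animal 1 (x axis) and animal 2 (y axis), both log axes in the authors' signal; each point is a site, colours give the kind of annotated start within 1 kb, circles mark the 7 sites of multi-copy sequence and the dotted line marks equal heights. Most points (282 of 352, 80.1%) lie above the line, while 5 of the 7 circled sites lie below it. Of all matched autosomal peaks 71.7% were higher in animal 2.

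Heights were set side by side as deposited. The median log2 ratio of animal 2 over animal 1 was 0.16 at the sites, and 0.23 over all 56738 autosomal peaks matched 1 to 1. Animal 2 was higher at 282 of the 352 sites (80.1%) and at 71.7% of all matched peaks. For promoter sites of height 8 or more in both animals the share was 85.7%. Over 1.5-fold higher in animal 2 were 6 sites, where 16.7% of all matched peaks were, and over 1.5-fold higher in animal 1 was 1 site, where 3.54% were. Each site had to reach height 8 in both animals, which can leave out large ratios, so nothing is read from these counts. The SD of the log2 ratios was 0.218 over the sites and 0.408 over all matched peaks. The part of the choice in this was not tested. Heights ranked alike in the animals across the sites, with a Spearman rho of 0.80 (n = 352, a description within a range set by the rule).

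The largest difference toward animal 2 was at a site nearest Cr2, the complement receptor gene of B cells, with 8.28 in animal 1 and 15.8 in animal 2. It lay 64955 bp upstream of Cr2 and 664 bp from the start of the non-coding gene Gm27940. Ubqln1 (18.9 and 30.5), Cbx7 (10.5 and 16.3) and Dtnb (8.86 and 13.3) came next. Toward animal 1 the largest was Gm10722, with 19.9 in animal 1 and 9.80 in animal 2, followed by Il31ra, Shcbp1l (12.03 and 8.70) and Ptprj (11.2 and 8.45). With 1 library per animal, these differences have no replicate check.

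The sites lay a median of 7887 bp from the nearest coding TSS, against 12252 bp for 33342 lower distal sites. Those are the pairs of overlapping peaks under height 8 in both animals at the same distances, with a median height of 1.04 in animal 1 and 1.17 in animal 2. The closest site was 1006 bp from a Foxo3 TSS (14.3 in animal 1 and 16.01 in animal 2). By their centre, 193 sites (54.8%) were intergenic, 95 (27.0%) lay in introns of coding genes and 17 (4.83%) in their exons. Non-coding exons held 26 sites and non-coding introns 21. Of the lower distal sites 47.1% were in coding introns and 39.6% intergenic. Height hardly followed distance across the sites (Spearman rho 0.03, n = 352, a description).

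Although all sites were over 1 kb from a coding TSS in GENCODE, 140 of them (39.8%) had another annotated start within 1 kb, against 10.9% of the lower distal sites. A tRNA gene stood within 1 kb of 16 sites, and a GENCODE non-coding start within 1 kb of 87 others. A further 37 had a start only in RefSeq. At 28 of the 352 sites the nearest RefSeq start within 1 kb was that of an mRNA, so these lay by a coding start of the other annotation. The remaining 212 had none. Counting every site, 88 (25.0%) had a GENCODE non-coding start within 1 kb, among them 38 of lincRNA genes and 10 of antisense genes, against 5.84% of the lower distal sites. The word distal thus holds for protein-coding genes of GENCODE M21, not for every annotated transcript.

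Starts of well-known non-coding RNAs were among the highest. The site upstream of Malat1 had 17.9 in animal 1 and 21.5 in animal 2, and a second at the Malat1 start (0 bp) had 9.58 and 10.5. Mir142hg had 16.6 and 17.2 at its start and 9.56 and 9.61 at 811 bp from it. A site 261 bp from 1810026B05Rik, which RefSeq names Chaserr, a non-coding neighbour of the chromatin remodeller gene Chd2, had 17.4 and 19.8. These were singled out after their values were seen.

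Among the 16 sites with a tRNA gene, the highest mean was at n-TRccg1, with 13.7 in animal 1 and 13.7 in animal 2. Next were the site nearest Gngt2 (11.8 and 14.4) and those at n-TNgtt14 (13.1 in animal 1 and 13.1 in animal 2) and n-TYgta10 (11.8 and 12.7), genes for asparagine and tyrosine tRNA. The lowest was beside n-TAagc8 (8.63 and 8.71). Their median log2 ratio between animals was 0.01, against 0.16 for all the sites. In total 4.55% of the sites had a tRNA gene within 1 kb, against 0.654% of the lower distal sites and 0.521% of 4224 strong promoter sites. Strong promoter sites are pairs of peaks of height 8 or more within 1 kb of a coding TSS.

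In base composition the sites stood between the lower distal sites and the strong promoters. Median GC of the central 200 bp was 61.8% at the strong distal sites, 51.5% at the lower distal sites and 66.0% at the strong promoters. A window was called CpG-rich when its GC was over 50% and its CpG count was over 0.6 of that expected from its bases, a criterion applied after the composition was seen. By it 205 sites (58.2%) were CpG-rich, against 6.38% of the lower distal sites and 92.0% of the strong promoters. Among the 212 sites with no other start, 102 were CpG-rich and 110 were not. Of the 16 tRNA sites 14 were CpG-rich, and of the 87 with a GENCODE non-coding start 64 were.

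**Figure D2:**
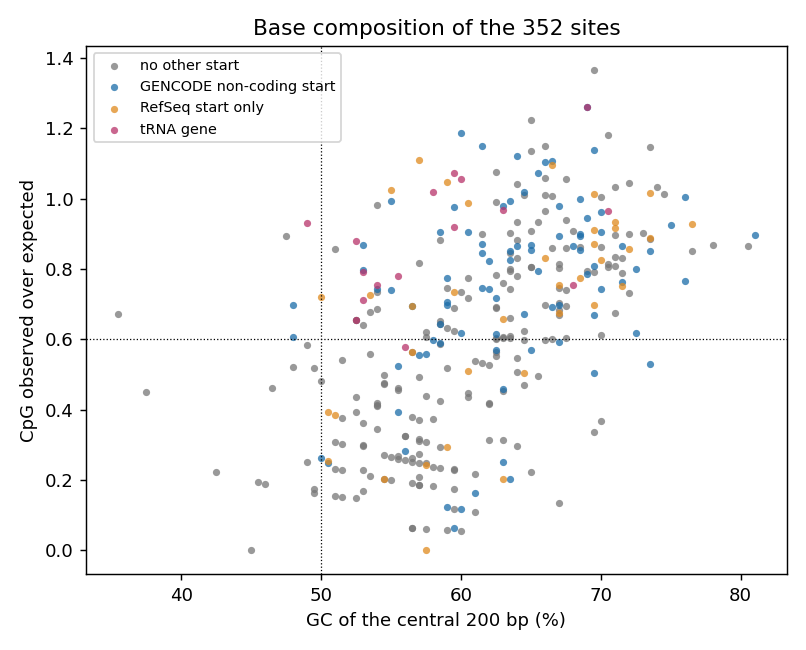
GC of the central 200 bp in percent (x axis) and CpG observed over expected (y axis) for each of the 352 sites, coloured by the kind of start within 1 kb; dotted lines mark GC of 50% and a ratio of 0.6. The 205 CpG-rich sites fill the upper right, and sites without another start are split into 102 there and 110 elsewhere.

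Among the sites without another start, those not CpG-rich, by GC or by CpG ratio, differed in place from the CpG-rich ones. Of the 110, 49 lay in coding introns and 46 between genes. Of the 102, 22 lay in coding introns and 66 between genes. Median heights were 9.51 in animal 1 and 10.6 in animal 2 for the 110, and 10.6 and 12.4 for the 102. Height followed the CpG ratio weakly over all 352 sites (Spearman rho 0.35, a description, and the points share libraries and base composition).

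At 7 sites under 50% of the 31-base words of the central window were unique in the genome, so reads there could also belong elsewhere. They were sites nearest Gm10722, Zc3h7a, Gm15319, Igf2bp3, Tex14, Lars2 and Il31ra. The Gm10722 site (chr9:3002037-3002220) was wholly repeat sequence, and its words occurred a median of 33 times. Of these 7 sites, 5 had their taller peak in animal 1. Their log2 ratio of animal 2 over animal 1 was -0.34 at the median, opposite in sign to most sites. Whether copy number or the placing of reads accounts for their heights was not tested. None of the 352 windows resembled the mitochondrial genome. Without these 7 sites, 345 sites remained and the share with a GENCODE non-coding start was 24.6%.

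The 352 sites had 310 nearest coding genes, and 278 of these had a single site. Ptma, a gene for the small nuclear acidic protein prothymosin alpha, had 5 sites from 1340 to 39090 bp from its TSS. Their heights were 14.5 and 12.8 (animal 1 and animal 2), 10.5 and 14.2, 14.7 and 19.1, 8.93 and 9.07, and 8.06 and 10.5. Chd2 had 4 sites, from 16826 to 76711 bp away. Mef2d, Tspoap1, Kmt2e, Susd1 and Egr3 had 3 each, where Mef2d codes for a transcription factor of lymphocytes and muscle and Kmt2e for a chromatin protein. All 3 sites nearest Kmt2e, and 2 of the 3 nearest Tspoap1 and Mef2d, stood within 1 kb of a GENCODE non-coding start.

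Some sites lay close together: 30 of the 352 (8.52%) had another site within 2 kb, 51 (14.5%) within 10 kb and 104 (29.5%) within 100 kb. The same shares were not taken for the lower distal or strong promoter sites, so nothing is read from them. Counted in bins of 1 Mb, the fullest held 6 sites each. These were the bin of Ptma and Tex44 on chromosome 1 and the bin of Junb, Ier2, Hook2 and Nanos3 on chromosome 8. The bin from 34 to 35 Mb of chromosome 17, which holds MHC class II genes, had 5. The next, with the class I gene H2-D1, had 4.

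Genes were also counted by lists of known function, 21 in all, chosen with earlier results of these data known. Of all autosomal coding genes 310 of 20780 (1.49%) were nearest to a site. Immediate early and stress genes, which are switched on within minutes of a stimulus, had 9 of 19 (47.4%). MHC class II genes, which present antigen on B cells and dendritic cells, had 5 of 10 (50%). Among these, Junb, Jund, Ier2, Zfp36 and Cd74 had sites only within 2 kb of a TSS. Over all lists 25 genes had a site, and 20 did with a lower distance limit of 2 kb. Leukocyte transcription factors had 3 of 21, cytokine signalling and NF-kB genes 2 of 20, macrophage genes 2 of 25, B cell genes 2 of 26, adhesion genes 1 of 14 and neuronal genes 1 of 11. The other 13 lists had none, among them T cell (0 of 29), erythroid (0 of 18), germinal centre and plasma cell (0 of 13) and NK genes (0 of 11). Counted within 50 kb of any TSS, leukocyte transcription factors had 1 of 21 (4.76%), against 4.04% of all coding genes. By that count immediate early genes had 9 of 19, cytokine genes 3 of 20, B cell genes 3 of 26 and adhesion genes 3 of 14. Macrophage genes had 2 of 25, neuronal genes 2 of 11, and T cell, neutrophil, endothelial and stromal genes 1 each.

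**Figure D3:**
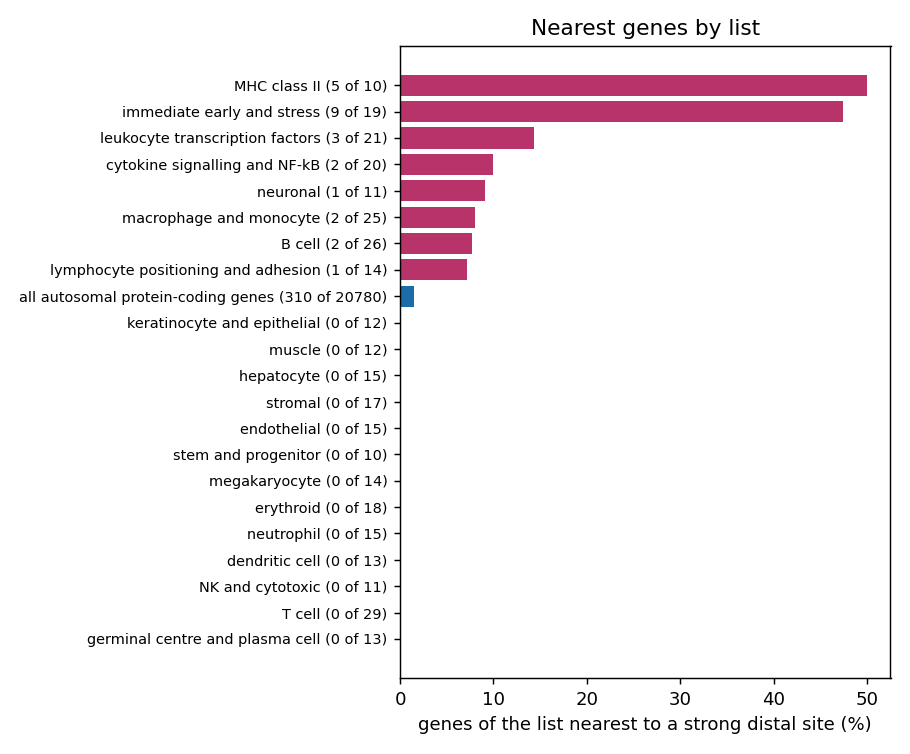
Percent of the genes of each list that were the nearest coding gene of at least 1 of the 352 sites (bars from 0, counts beside the names); the blue bar is all autosomal protein-coding genes. MHC class II (50%) and immediate early and stress genes (47.4%) have the longest bars, and 13 lists have none.

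The immediate early genes with a site were Fos, Fosb, Junb, Jund, Egr1, Egr3, Ier2, Btg2 and Zfp36. Fos, a subunit of AP-1, had a site 18519 bp upstream (11.8 in animal 1 and 14.7 in animal 2) and another 11245 bp downstream (10.2 and 10.98). Ier2 had a site 1229 bp upstream (12.1 and 11.8) and another 1136 bp downstream, in its exon (9.95 and 9.63). Egr3, a zinc finger factor of activated lymphocytes, had sites 7732 bp (10.4 and 10.5), 20082 bp (9.23 and 9.74) and 2202 bp (8.34 and 8.98) upstream. Junb (10.5 and 10.7), Jund (8.60 and 9.47), Fosb (8.39 and 9.97), Egr1 (8.29 and 11.7) and Zfp36 (11.5 and 11.9), an mRNA decay factor, had 1 each. These lay 1338 bp (Junb), 1792 bp (Jund), 10120 bp (Fosb), 26339 bp (Egr1) and 1948 bp (Zfp36) from the TSS. Btg2, an antiproliferative gene, had 2, at 11.4 and 11.6 and at 9.10 and 10.3. Of the whole list of 19, 13 were the nearest coding gene of a promoter peak of height 8 or more in both animals. That is 68.4%, against 19.2% of all coding genes.

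The MHC class II genes with a site were Cd74, H2-Oa, H2-Eb1, H2-Aa and H2-Ob. Cd74, the invariant chain, had a site in its intron 1111 bp downstream of a TSS, at 10.9 in animal 1 and 11.5 in animal 2. H2-Oa, which with H2-Ob forms a modulator of peptide loading, had 8.80 and 11.1 at 9264 bp downstream. H2-Eb1 had 9.73 and 8.90 at 4561 bp upstream, H2-Aa had 8.72 and 8.82 at 3968 bp upstream, and H2-Ob had 8.03 and 8.75 at 3767 bp upstream. None of these 5 sites had another start within 1 kb, as for 212 of the 352. None was CpG-rich, where 205 of the 352 were. Counted within 50 kb of any TSS, 8 of the 10 genes had a site, against 4.04% of all coding genes. Since the class II genes are neighbours, these counts are not independent.

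Other immune genes with a site were few. Socs3, a feedback inhibitor of cytokine signalling, had 13.3 in animal 1 and 14.2 in animal 2 at 5605 bp downstream. Nr4a1 had 13.4 and 12.4, Irf1 had 10.1 and 13.0, Runx3 had 9.54 and 13.1, Cebpb had 8.80 and 10.4 and Irf2 had 8.65 and 10.1. The sites of Runx3 and Irf2 lay 51980 and 52746 bp from the TSS, beyond 50 kb. Cd79b, a chain of the B cell receptor, had 8.28 and 8.60 at 6173 bp downstream. Cd69, an activation marker of lymphocytes, had 9.61 and 10.1. Gad1, a neuronal gene, had 9.48 and 10.8 in its own intron. Cd83, a maturation marker of B cells and dendritic cells that was in none of the lists, had 2 sites, at 8.56 and 8.66 and at 13.96 and 19.1, and was named after its values were seen.

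Every one of the 352 sites held a footprint in both animals, where 7.91% of the lower distal sites in animal 1 and 6.39% in animal 2 had none. Nearly all strong promoters held one too, as 0.0237% in animal 1 and 0.0473% in animal 2 had none. Animal 1 had 4.42 footprints per site on average and animal 2 had 4.57, a mean of 4.49 ± 0.102 (SD, n = 2). The lower distal sites had 2.54 ± 0.105 and the strong promoters 4.98 ± 0.0288. In a fixed window of 200 bp the sites had 3.81 and 3.96, against 2.35 and 2.53 at the lower distal sites and 4.11 and 4.165 at the strong promoters. The SD is between the means of the 2 animals over the same sites, so it does not measure the spread among sites. The groups differ in height by their choice, and the part of height in these counts was not tested.

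Footprints at the strong sites had a width at the median of 19 bp in animal 1 and 20 bp in animal 2, against 10 and 11 bp at the lower distal sites. They covered 38.2% and 40.3% of the sites' bases, against 15.5% and 18.1% at the lower distal sites and 40.7% and 41.8% at the strong promoters. Of the 1556 footprints of animal 1, 89.1% overlapped a footprint of animal 2, and of the 1607 of animal 2, 84.1% overlapped one of animal 1. At the lower distal sites these shares were 62.6% and 57.2%. At the strong promoters they were 88.0% and 86.7%, and the median width there was 19 and 20 bp. The lower distal sites differ in height by the choice of groups, and the part of height in footprint width and sharing was not tested.

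Most footprints per site were seen nearest Rps6ka1 (9 in animal 1 and 13 in animal 2), Ier5 (10 and 10), Kcnn1 (10 and 10), Ptma (8 and 11) and Wnt7b (10 and 9). Footprints were counted over the whole joined site, and these sites were all longer than 240 bp, the upper quartile of peak width in each animal. The part of width in this ranking was not tested. The number of footprints hardly followed height within the set (Spearman rho 0.07 across the 352 sites, a description).

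**Figure D4:**
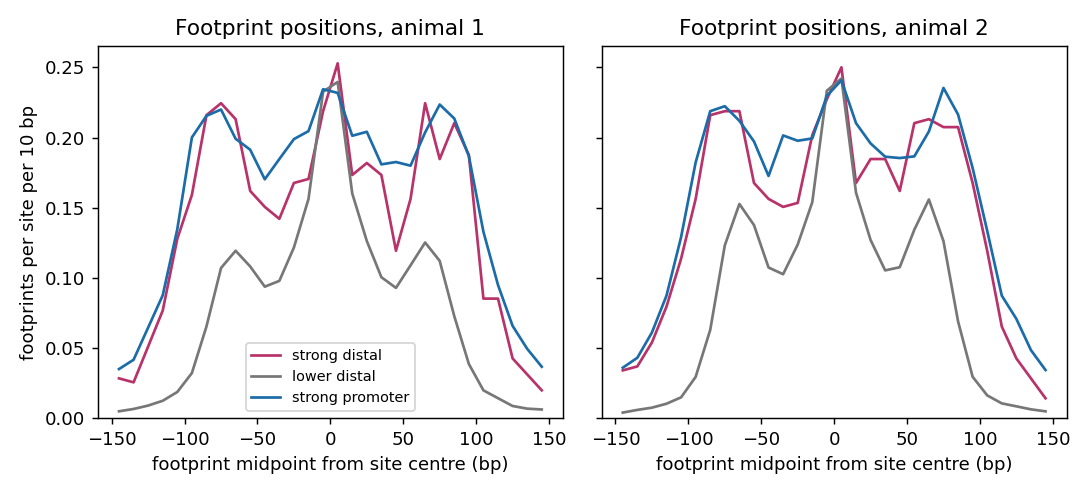
Footprints per site in bins of 10 bp (y axis) against the distance of the footprint midpoint from the site centre in bp (x axis), for animal 1 (left) and animal 2 (right); lines are the strong distal, lower distal and strong promoter sites. The strong distal sites have 3 humps, with 0.253 footprints per site just right of the centre and 0.224 at both -75 and 65 bp in animal 1, where the lower distal sites have 0.240 at the centre and lower shoulders. The strong promoters have 0.232 just right of the centre, 0.220 at -75 bp and 0.204 at 65 bp in animal 1.

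Footprints of the strong sites were spread across the site. In animal 1, 40.04% of their midpoints lay within 50 bp of the centre, and in animal 2 40.8%. At the lower distal sites 58.0% and 56.4% did, and at the strong promoters 40.5% and 40.7%. The run of intervals with a deposited cut-rate q-value under 0.05 that covered the site's centre was 931 bp long at the median in animal 1 and 716 bp in animal 2. The lower distal sites had 282 and 257 bp and the strong promoters 1195 and 1069 bp. The peaks themselves had similar widths, a median of 220 and 200 bp against 200 and 180 bp. A run at a fixed q-value comes from the same cuts as the height that chose the sites, so these lengths are a description of that choice.

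Letters of 25 binding motifs were searched on both strands of the central 200 bp. The GC box (GGGCGG), the element of SP and KLF factors, was the most frequent, in 183 of 352 sites (52.0%). It was in 10.9% of the lower distal sites, 73.6% of the strong promoters and 8.38% of windows 1 kb to either side of the strong sites. NFY (CCAAT) followed with 33.2%, against 19.5% of the lower distal sites. CREB (TGACGTCA) was in 4.55% against 0.450%, NRF1 (GCGCATGC) in 5.97% against 0.756%, and the ETS form CCGGAAGT in 4.26% against 0.837%. The strong promoters had higher shares of all of these, with NFY in 44.65%, CREB in 5.37%, NRF1 in 8.12% and the ETS form in 9.02%. EBF, the B cell factor, was in 9.38% of the strong sites, 5.13% of the lower distal sites and 5.75% of the strong promoters.

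Other motifs had higher shares at the lower distal sites. CTCF, which marks insulators and loop anchors, was matched at 9.66% of the strong sites and 20.7% of the lower ones, against 1.42% of the flanks. Without animal 1, when 585 sites were chosen on animal 2 alone, the share was 16.8%, and with only the most 5' TSS of each gene it was 6.37%. The letters AGATAA of GATA factors were in 1.99% against 6.37%, RUNX (TGTGGTT) in 5.11% against 8.30%, and the ETS-IRF composite in 1.70% against 3.76%. PU.1 (GAGGAAGT), the factor of B and myeloid cells, was in 5.40% against 6.84%. These shares are over all the strong sites. At those without another start that were not CpG-rich, PU.1 and RUNX shares were above those of the lower distal sites, as given below. CTCF, GATA and ETS-IRF shares there stayed below. GC box, NRF1 and CREB letters are rich in G, C or CpG and the groups differed in GC as given above. The part of base composition in these shares was not tested.

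**Figure D5:**
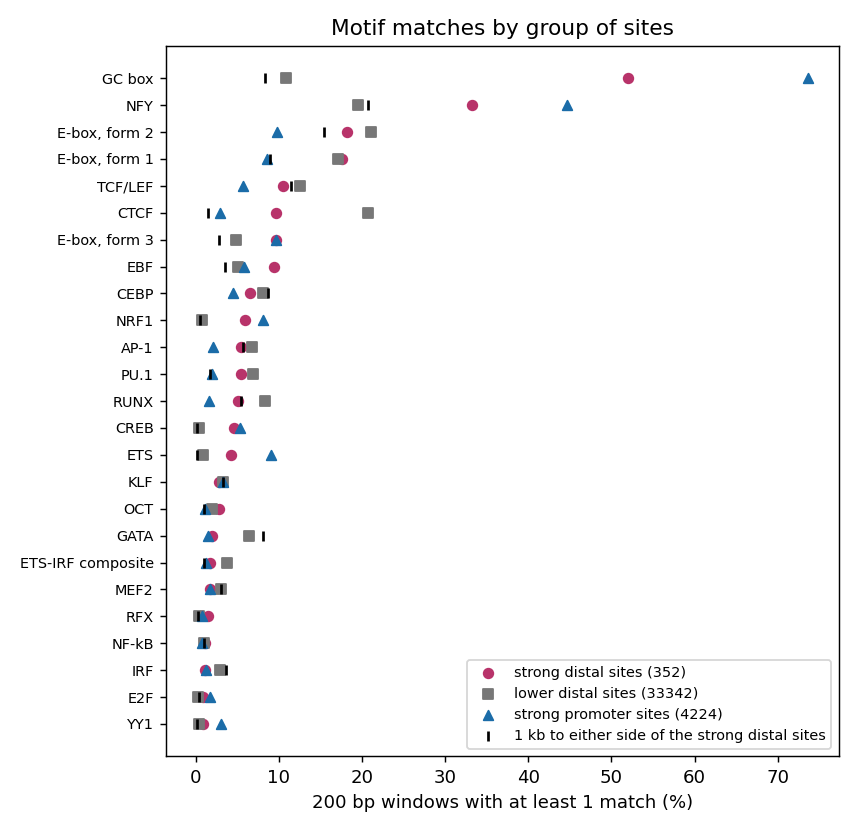
Percent of 200 bp windows with at least 1 match (x axis) for each of 25 motifs (y axis); circles are the 352 strong distal sites, squares 33342 lower distal sites, triangles 4224 strong promoter sites and bars the windows 1 kb to either side. The GC box reaches 52.0% at the strong distal sites and 10.9% at the lower distal sites, while CTCF is at 9.66% and 20.7% (16.8% at strong sites chosen on animal 2 alone).

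The other letters searched were AP-1 (TGANTCA, in 5.40% of the strong sites against 6.74% of the lower ones), KLF (GGGTGTGG, 2.84% against 3.26%), NF-kB (GGGANTTTC, 1.14% against 0.999%), OCT (ATGCAAAT, 2.84% against 1.98%) and CEBP (TTGCNNAA, 6.53% against 8.12%). YY1 (AAGATGGCG) was in 0.852% against 0.339%, TCF/LEF (CTTTGA) in 10.5% against 12.5%, E2F (TTTCCCGC) in 0.852% against 0.222% and RFX (GTTGCCATG) in 1.42% against 0.360%. At the strong promoters YY1 was in 2.98%, TCF/LEF in 5.63%, E2F in 1.70% and RFX in 0.805%. The 3 forms of the E-box were CAGCTG (form 1, 17.6% against 17.1%), CACCTG (form 2, 18.2% against 21.1%) and CACGTG (form 3, 9.66% against 4.79%). At the strong promoters form 1 was in 8.59%, form 2 in 9.80% and form 3 in 9.68%. IRF was matched at 1.14% against 2.96% and MEF2 at 1.70% against 3.02%. EBF reads nearly alike on both strands, so 1 place can count as 2 matches. ETS-IRF and IRF letters can overlap, as can CTCF and the CACCTG form.

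Motifs are given next by kind of site. The CpG split was made on the same windows in which letters were counted, so it fixes GC box counts in part and these counts are a description. Of the 110 sites without another start that were not CpG-rich, 18 held a CTCF match, 12 a RUNX match and 11 a PU.1 match. A GC box was in 21. Of the 102 CpG-rich sites without another start, 6 held CTCF, 2 RUNX and 2 PU.1, while 78 held a GC box. Of the 140 sites with another start, 84 held a GC box, 10 CTCF and 6 PU.1. So 11 of the 19 sites with a PU.1 match and 12 of the 18 with a RUNX match had no other annotated start and were not CpG-rich. Within those 110 sites PU.1 was matched at 10.0% and RUNX at 10.9%, above the 6.84% and 8.30% of all lower distal sites. CTCF, at 16.4%, stayed below the 20.7% of the lower distal sites. Motif shares of the lower distal sites were not split by kind of site, so these shares are not like for like. These groupings were made after the composition was seen.

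Motif matches differed in how often a footprint covered them. Of 41 CTCF matches in the strong sites 40 overlapped a footprint in both animals, as did all 18 CREB matches and 39 of 41 NRF1 matches. GC boxes did at 82.9% of 385 matches in animal 1 and 80.3% in animal 2, and EBF at 84.2% and 87.7% of 57. RUNX did at 12 of 19 and 11 of 19. PU.1 was low, with 5 of 23 matches in each animal and 3 in both, and AP-1 had 7 and 8 of 22. An overlap of 1 bp was enough for these counts. Footprints covered 38.2% and 40.3% of all bases of the sites, while they covered 18.5% and 13.0% of the bases of PU.1 matches and 20.1% and 24.7% of those of AP-1 matches. For RUNX matches they covered 42.9% and 37.6% of the bases, near the share of all bases, and for CTCF matches 97.4% in each animal. The PU.1, AP-1 and RUNX motifs had few matches.

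The highest CTCF sites without another start were nearest Ccne1 (21.2 in animal 1 and 23.6 in animal 2), Stard10 (12.8 and 17.4), Chd2 (14.3 and 13.4), Ssc5d (12.01 and 12.4) and Ctcf itself, in an intron of Agrp (10.8 and 13.6). The highest with PU.1 letters and no other start were the Cers5 exon site, the Ccnd3 intron (16.9 and 16.5), the Ptma site 17165 bp upstream (10.5 and 14.2), S100a11 (10.6 and 11.8) and Cd52 (10.4 and 11.2). Ccnd3 codes for cyclin D3 and Cd52 for a surface glycoprotein of lymphocytes. The highest with EBF letters and no other start included Zfp395, Cirbp, Slc38a2 (16.5 and 18.8) and Traf3 (15.1 and 15.6). All of these were picked by motif after the values were seen.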

How the data were processed

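DNase-seq libraries from the spleens of 2 mice were used, 1 per animal. Per the deposited file listings, reads were placed on mm10, and peak, footprint and cut-rate files were made library by library, without pooling. Which aligner and callers were used is not given in the sources used here. Peak heights are the authors' signal, a cut density without a stated unit. The deposited cut-rate files hold a q-value per interval, all under 0.05, and the deposited footprint files hold the constant 0.01 in that column, so footprints were used by position.

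The longer peak list was read. Sites were annotated with GENCODE M21 and RefSeq GRCm38.p6 transcripts. A footprint belonged to a site holding its midpoint. Sequence windows were 200 bp, flanks lay 1 kb away, and words of 31 bases were counted on the chromosomes. Similarity to the mitochondrial genome was searched with BLAST+ 2.17.0+ (E-value 1e-05). Scripts ran in Python 3.11.15 with pandas 2.3.3, numpy 2.4.6 and scipy 1.17.1 and were tested on simulated data. The members and lists were chosen with earlier results of these data known.

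Named sites were the 12 highest, the 5 with most footprints, the 4 largest ratios each way, up to 4 per gene list, genes with most sites and sites nearest each limit. Sites named by motif, start or copy number were added after the values were seen. Some sites that these choices name are not reported here. With a single group of 2 animals no test was run. Alternatives varied height, distance, overlap, peak list, TSS set, window and animal.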

Additional observations from a re-analysis of the deposited data

How the results depend on the processing

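No paired analysis was possible because the series has a single group. All values describe 2 libraries, and a share is taken to have moved when it leaves the 95% Wilson interval of its main value. Of 134 alternative values 105 stayed and 29 moved. The threshold and the TSS set mattered most. At height 10 there were 179 sites, 30.2% with a non-coding start within 1 kb, 4.60 footprints per site and 11 list genes. At height 6 there were 748 sites, 19.9%, 4.26 footprints, 43 list genes and CTCF letters in 13.8%. With only the most 5' TSS of each gene there were 706 sites, 20.1% with a non-coding start, 4.72 footprints and CTCF letters in 6.37%, because alternative promoters then count as distal. With the TSS of all gene types there were 272 sites and the non-coding share was 0 by construction. CTCF letters were in 6.53% of 100 bp windows, and a fixed 200 bp window held 3.89 footprints. Using 1 animal alone gave 383 to 585 sites, 22.1% to 24.02% with a non-coding start, 3.99 to 4.23 footprints, 30 to 36 list genes and CTCF letters in 9.40% to 16.8%. The 585 sites were those of animal 2 alone, and the 383 those of animal 1. Scaling animal 2 by the median ratio of 1.17 left 293 sites, and the shorter peak list gave 352.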

Other observations

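Chromosome 11 held 37 of the 352 (10.5%), against 8.12% of the lower distal sites and 8.78% of the strong promoters. Chromosome 7 held 34 (9.66%, against 6.29% of the lower distal sites and 9.14% of the strong promoters) and chromosome 8 held 29 (8.24%, against 5.01% and 6.30%). Chromosome 3 held 9 (2.56%, against 4.78% and 4.24%). Neighbouring sites share a locus, so these counts are not independent.

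Some masked repeat sequence was held by 41.2% of the central windows of the strong sites, against 56.6% of the lower distal and 27.2% of the strong promoter windows. Only 1 of the 352 was over 80% repeat, the Gm10722 site, against 1.57% of the lower distal sites. Multi-copy windows made up 1.99% of the strong sites and 1.43% of the lower distal sites.

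Small RNA genes other than tRNA were also represented, each chosen after its values were seen. A site near Rnu3b3, a gene for the U3 small nucleolar RNA, had 10.9 in animal 1 and 11.1 in animal 2, in sequence of which 24.1% of words were unique. Sites near Scarna2, a guide RNA of Cajal bodies, had 8.62 and 10.1, and near Snord104 8.50 and 9.55.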
